A study of Mus musculus with 9 samples.

Results

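The interferon response genes are the receptors, sensors, transcription factors and induced effectors of the innate antiviral programme. They were taken as the rows of the expression table whose symbol is in a list of 43 mouse genes, and 42 of these were present among 17482 genes. Mx1 was not analysed here. Expression was measured in 9 libraries of tumours labelled MB, from mice at postnatal day 8 or 9, in 3 groups of 3. SG tumours had the genotype fSMO-M2;hGFAPcre, a conditional SMO-M2 allele with the hGFAPcre driver. YSGr (rescued) and YSGnr (non-rescued) tumours had the genotype fYap1;fSMO-M2;hGFAPcre, which adds a floxed Yap1 allele. All 3 groups therefore carried the Cre driver and the active Smoothened allele, and hGFAPcre acts in neural progenitors and glia, so lineages such as microglia and endothelium lie outside its known activity. The labels do not define rescue, and whether libraries come from different animals is not said, so the tests rest on library-to-library spread, part of which may be technical.

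Type I interferons bind the receptor pair IFNAR1 and IFNAR2, and a complex that contains STAT2 and IRF9 then binds the interferon-stimulated response element of target genes. Interferon gamma binds IFNGR1 and IFNGR2 and acts on target genes with gamma-activated sites. The cytosolic RNA sensors encoded by Ifih1 and Ddx58 induce interferon through IRF3 and IRF7. In brain tissue without infection a low tonic level of the pathway is present, with microglia and other myeloid cells as a usual source of several of its transcripts.

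Only some of these genes hold the classical response element close to the annotated start. The 250 bases before the start were searched on both strands for GAAA followed after any 2 bases by GAAA, the core of the interferon-stimulated response element, and for TTCNNNGAA, the gamma-activated site, whose letters read the same on both strands. RefSeq windows on GRCm38.p6 were found for 36 of the 42 genes. The response element core was present in 12 of the 36 (33.3%), against 3.46% of 27018 genes with a window. The gamma-activated site was present in 10 of the 36 (27.8%), against 8.13% of all. Rsad2 and Ifit2, the effectors that fell in YSGr, are given here with Isg15 and Ifit1, effectors whose windows hold the element, as the 120 bases before the annotated start. Capitals mark each match to the response element core on either strand, so a match on the opposite strand reads as TTTC, 2 bases and TTTC. The Rsad2 window is chr12:26456453-26456572 on the minus strand, the Ifit2 window chr19:34550574-34550693 on the plus strand, the Isg15 window chr4:156200819-156200938 on the minus strand and the Ifit1 window chr19:34640769-34640888 on the plus strand.
Rsad2: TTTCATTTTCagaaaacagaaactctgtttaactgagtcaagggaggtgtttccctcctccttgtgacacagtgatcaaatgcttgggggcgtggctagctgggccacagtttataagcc
Ifit2: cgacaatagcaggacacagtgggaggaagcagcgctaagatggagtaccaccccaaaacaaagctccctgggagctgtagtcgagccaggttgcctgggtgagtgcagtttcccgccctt
Isg15: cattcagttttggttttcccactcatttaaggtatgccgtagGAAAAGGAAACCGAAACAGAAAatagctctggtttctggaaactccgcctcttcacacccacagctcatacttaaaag
Ifit1: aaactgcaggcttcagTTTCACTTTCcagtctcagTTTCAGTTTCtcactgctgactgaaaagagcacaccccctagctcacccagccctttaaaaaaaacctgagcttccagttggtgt
Rsad2 has 1 match, Isg15 has 3 that overlap each other, and Ifit1 has 2. Neither RefSeq start of Ifit2 has a match to the response element core in its 250 bases, and 1 of them has a gamma-activated site. A missing match says only that these letters are not in this window.

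Levels are log2 CPM, read counts scaled to library size on a log scale, as the authors deposited them. Effective library sizes, back-calculated from the steps between low values, were between 18.1 and 32.3 M reads in 8 libraries and 3.92 M in YSGnr replicate 1. The estimated reads summed over genes, which differ from the effective size, were 9.66 M in that library and between 17.3 and 29.2 M in the others. Yam1 and Lars2, genes that are not part of this set, made up 63.4% of the summed reads of YSGnr replicate 1. In each other library they made up between 1.98% and 8.15%. Yap1, the targeted gene, was at 5.04, 5.11 and 5.03 log2 CPM in the SG replicates, at 4.44, 3.31 and 2.79 in the YSGr replicates and at 2.79, 2.57 and 1.99 in the YSGnr replicates, with every floxed library below every SG library. Xist was at least 9.81 log2 CPM in the 3 YSGr libraries and YSGnr replicate 1 and at most -0.25 in the other 5, in which Ddx3y was at least 4.97. The SG and YSGr groups thus hold no libraries alike in these sex-linked transcripts, and an effect of sex cannot be told apart from one of group in that comparison. Markers of granule neuron progenitors and Hedgehog tumours, 7 genes with Atoh1, Gli1 and Ptch1 among them, summed to between 1629 and 2442 CPM in every library. Zic1 had the highest level of that list in every library. YSGr replicates 1 and 2 stood apart within the list: the Hedgehog target Gli1 was at 5.12 and 5.01 log2 CPM in them, 7.57 in YSGr replicate 3 and between 7.30 and 7.75 in the other 6 libraries. Ptch1 was the 1 gene of the list called in YSGr against SG, by -1.83 (limma, adjusted p = 0.0244). It was at 6.77, 6.53 and 8.27 log2 CPM in YSGr and between 8.91 and 9.24 in SG. Mature granule neuron markers summed to between 332 and 445 CPM in YSGr, 115 and 183 in YSGnr and at most 68.3 in SG, and oligodendrocyte markers to between 1895 and 3040, 536 and 1418, and 435 and 895 CPM. The part of this cell make-up in the results was not tested. Microglia and macrophage markers summed to between 249 and 260 CPM in SG, between 194 and 263 in YSGr, and to 158, 380 and 360 in YSGnr replicates 1, 2 and 3. The list was not uniform: in YSGnr replicates 2 and 3, 7 of its 10 genes lay above every SG library, while Cx3cr1 and Sall1 lay below every SG library. Dendritic cell markers summed to between 34.4 and 37.6 CPM in SG, 53.6 and 105 in YSGr and 38.9 and 56.8 in YSGnr. Zbtb46 had the highest level of that list in every library. It and Flt3, 2 of the list, were called higher in YSGr than in SG. Siglech, Itgax and Xcr1 were not called, with log2 differences of 0.24, 0.75 and -0.21, so this list was not uniform either. Endothelial markers summed to between 219 and 243 CPM in SG, 196 and 230 in YSGr and 126 and 173 in YSGnr. Of 10 T and NK cell markers only Cd4 is in the table, at a CPM of at most 4.45.

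The baseline of the pathway was uneven. Scaled to the longest annotated transcript, the receptor gene Ifnar1 ranked first of the 42 at 22.0 ± 0.308 CPM per kb in SG (SD, n = 3). The RNA-editing enzyme gene Adar followed at 12.2 ± 0.535, the transcription factor gene Irf3 at 11.7 ± 1.53 and Samhd1, which encodes a dNTP-degrading restriction factor, at 11.3 ± 0.185. The SG level of Irf3 did not differ from that of Adar or Samhd1 beyond its SD. Interferon-induced genes were spread over the order: Ifit2 ranked 9, Ifi27 10, Bst2 12, Cmpk2 16 and the ubiquitin-like modifier gene Isg15 25, at 0.750 ± 0.252 CPM per kb in SG. The lowest ranks included Irf7 at 0.183 ± 0.0296, the deconjugating protease gene Usp18 at 0.182 ± 0.146 and Ifit1 at 0.111 ± 0.0922. Within the Ifit family, whose proteins bind viral RNA, Ifit2 was at 5.89 ± 0.335 CPM per kb in SG and Ifit3 at 0.255 ± 0.122. Ifit2 stood above Ifit3 and Ifit1 in every group, although Ifit3 lies 7.11 kb from it on chromosome 19. Ifit3 and Ifit1 have near-identical copies nearby, so their values are uncertain.

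**Figure D1:**
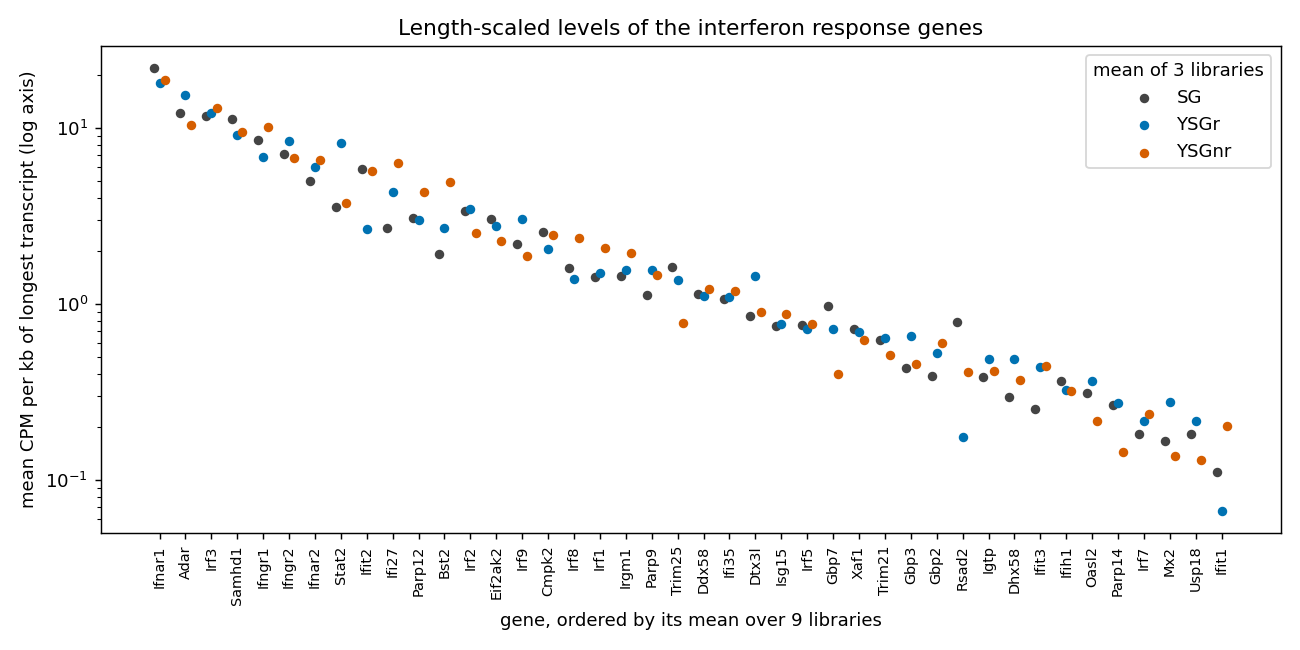
Mean CPM per kb of longest transcript (log axis) of the 42 interferon response genes, ordered by their mean over 9 libraries, with 1 point per group of 3 libraries. Ifnar1 is at the top and Irf7, Mx2, Usp18 and Ifit1 are at the bottom, and the widest gap between YSGr and SG at the lower end is that of Rsad2.

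Ifit1, Ifit3, Isg15, Irf7, Mx2 and Usp18 did not pass the filter on low values, and none was called when limma was run with no filter. Their levels ran from -2.96 to 0.45 log2 CPM over all 9 libraries, which is 1.00 to 32.7 estimated reads. Isg15 stood at -0.22, -1.04 and -0.70 log2 CPM in SG replicates 1 to 3, at -0.32, -1.01 and -0.51 in YSGr and at -0.74, -0.50 and -0.08 in YSGnr, so the 3 groups overlapped. Irf7, the factor that amplifies the type I response, stood at -0.77, -0.36 and -0.56 in SG, 0.11, -0.63 and -0.61 in YSGr and 0.45, -0.77 and -0.70 in YSGnr, again overlapping. Ifit1 stood at -1.31, -2.96 and -0.70 in SG, -1.64, -2.23 and -1.93 in YSGr and -0.23, -0.99 and -0.91 in YSGnr. Ifit3 stood at -1.02, -1.55 and -0.39 in SG, 0.27, -0.63 and -0.46 in YSGr and -0.23, -0.04 and -0.36 in YSGnr. YSGnr lay above SG for Ifit3, and YSGr lay below YSGnr for Ifit1, with no overlap. Usp18 in YSGr lay above YSGnr, and the groups overlapped in every other comparison of these 6 genes.

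YSGr and SG tumours differ in the floxed Yap1 allele, among tumours labelled rescued. In YSGr 2 effectors were called lower than in SG and no gene of the set was called higher. Rsad2, which encodes the antiviral enzyme viperin, was 4.32-fold lower in YSGr, and Ifit2 was 2.34-fold lower. The other 34 tested genes were not called at an adjusted p below 0.05 (limma, Benjamini-Hochberg over 15251 genes). The 2 calls, both lower, are among 36 tested genes, while 10.5% of all tested genes were called, 6.58% higher and 3.97% lower. The share of the set called in either direction was thus not above the background of 10.5%. By direction, 2 calls are too few to compare with the background. At an unadjusted p below 0.05, 3 of the 36 were higher and 4 lower, and 26.1% of all genes passed, 14.3% higher and 11.9% lower. Groups were fully separate at 12 of the 36 genes, 7 higher and 5 lower, and at 36.8% of all genes, 19.5% higher and 17.3% lower. The median difference of the 36 was 0.041 log2 units, against -0.024 over all tested genes.

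Rsad2 (ENSMUSG00000020641.16, chromosome 12, 26442746 to 26456452, GRCm38) stood at 1.65, 1.71 and 1.93 log2 CPM in SG replicates 1 to 3, at -0.66, -0.63 and 0.24 in YSGr and at 0.70, 1.08 and 0.78 in YSGnr. The 3 groups did not overlap: all SG libraries were highest, all YSGr libraries lowest and the YSGnr libraries between them. The estimated reads behind these values were 55 to 120 in SG, 15 to 25 in YSGr, and 6, 49 and 34 in YSGnr. Rsad2 fell by 2.11 log2 units in YSGr (SE 0.31, adjusted p = 0.00599, limma). In YSGnr the difference from SG was -0.91 (SE 0.31) and was not called (limma, adjusted p = 0.119), and YSGr and YSGnr differed by -1.20 (SE 0.31, adjusted p = 0.054, limma), also not called. Without YSGr replicate 3 the difference between YSGnr and SG was called (limma, adjusted p = 0.039). Between YSGr and YSGnr it was -1.50 without YSGr replicate 3 and -1.28 without YSGnr replicate 1, both called (limma, adjusted p = 0.00352 and 0.0294). Without YSGnr replicate 1, every YSGr library and no YSGnr library had high Xist, so sex and group cannot be told apart there. The libraries with high Xist, those of YSGr and YSGnr replicate 1, were also the lowest in Rsad2. Among those without high Xist, YSGnr replicates 2 and 3 lay below the SG libraries. Among those with it, YSGnr replicate 1, with 6 estimated reads, lay above the YSGr libraries. These orders rest on few libraries. Sex cannot be told apart from group between YSGr and SG, and its part in the Rsad2 differences was not tested. When YSGr replicate 3 was left out together with YSGnr replicate 1, all 3 differences were called, at -2.41, -0.83 and -1.58 (limma, adjusted p = 4.1e-05, 0.017 and 0.000569). In that fit, too, sex and group cannot be told apart between YSGr and YSGnr.

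Cmpk2, a mitochondrial nucleotide kinase gene, is the neighbour of Rsad2, 12.8 kb away on the opposite strand, and both are interferon-induced. Cmpk2 stood at 3.04, 3.16 and 3.06 log2 CPM in SG, 2.61, 2.93 and 2.75 in YSGr and 2.80, 3.21 and 3.03 in YSGnr. The YSGr libraries all lay below the SG libraries, but the difference of -0.32 (SE 0.17) was not called (limma, adjusted p = 0.279).

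Ifit2 (ENSMUSG00000045932.12, chromosome 19, 34550694 to 34576419, GRCm38) stood at 4.43, 4.46 and 4.59 log2 CPM in SG, at 3.04, 2.82 and 3.94 in YSGr and at 4.10, 4.70 and 4.52 in YSGnr. The YSGr libraries lay below all others, and the SG and YSGnr libraries overlapped. YSGnr replicate 1 was next lowest, so the libraries with high Xist were the lowest in Ifit2. Whether sex has a part in the Ifit2 differences was not tested. Ifit2 fell by 1.22 log2 units in YSGr against SG (SE 0.28, adjusted p = 0.0263, limma), and the log2 difference from YSGnr was -1.17 (SE 0.28, adjusted p = 0.046, limma). The difference between YSGnr and SG was -0.054 (SE 0.28, adjusted p = 0.916, limma), and its sign changed in 5 of 21 alternative fits. Leaving out any 1 SG library, or YSGr replicate 1 or 2, ended the call against SG (limma, adjusted p = 0.0945, 0.0943, 0.0983, 0.108 and 0.105), and with a length and GC trend removed (limma, adjusted p = 0.0501). YSGr replicate 3 had the highest Ifit2 of its group, and leaving it out gave -1.56 (limma, adjusted p = 0.000736). No annotated gene overlaps Rsad2, Ifit2, Trim25 or Stat2 in GENCODE M21.

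**Figure D2:**
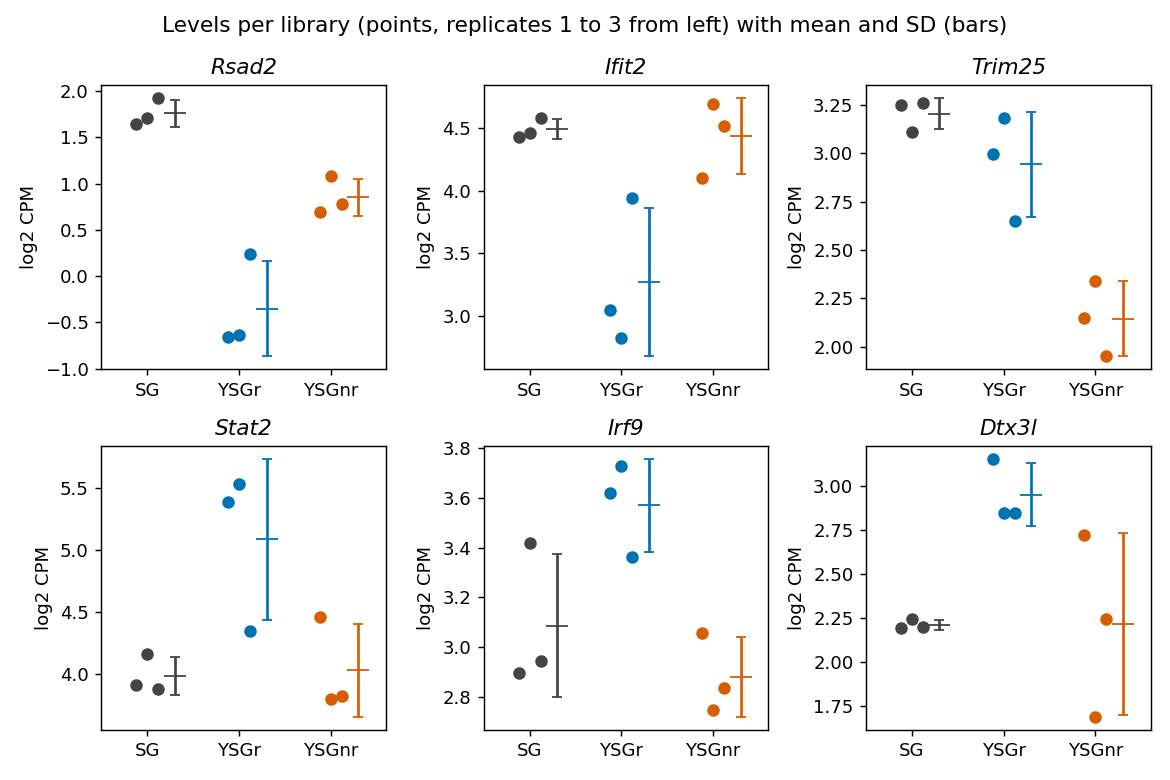
Log2 CPM of Rsad2, Ifit2, Trim25, Stat2, Irf9 and Dtx3l in each library (points) with the mean and SD of each group of 3 (bars). Rsad2 has 3 separate groups, Ifit2 is low in YSGr, Trim25 is low in YSGnr, and the YSGr libraries of Stat2 and Dtx3l lie above SG, with YSGr replicate 3 nearest to SG for Stat2.

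The other antiviral effectors gave no call in any comparison. Samhd1 stood at 5.45, 5.50 and 5.48 log2 CPM in SG, 5.22, 5.02 and 5.24 in YSGr and 5.31, 5.27 and 5.09 in YSGnr. Both floxed groups lay below SG with no overlap, by -0.32 (SE 0.12, adjusted p = 0.134, limma) and -0.25 (SE 0.12, adjusted p = 0.223, limma). Adar stood at 6.10, 6.19 and 6.22 in SG, 6.68, 6.66 and 6.14 in YSGr and 6.16, 5.75 and 5.93 in YSGnr, so YSGr replicates 1 and 2 were high and replicate 3 was at the SG level. Without YSGr replicate 3 the Adar difference from SG, 0.32 with all libraries, was 0.50 and called (limma, adjusted p = 0.0244, against 0.28). Oasl2, an oligoadenylate synthetase-like gene, was between -0.30 and 0.64 log2 CPM in 8 libraries and had no reads in YSGnr replicate 1, where 0 reads allow up to 0.766 CPM by counting error alone. Bst2, which encodes the virion-retaining protein tetherin, stood at 0.61, 0.75 and 0.71 in SG, 1.18, 0.48 and 1.62 in YSGr and -0.23, 1.96 and 2.85 in YSGnr, the widest spread of the effectors in YSGnr apart from Oasl2.

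The transcription factors of the pathway gave no call in the fit of all 9 libraries. Stat2 (ENSMUSG00000040033.16, chromosome 10, 128270559 to 128292849, GRCm38) stood at 3.91, 4.16 and 3.88 log2 CPM in SG, 5.39, 5.53 and 4.34 in YSGr and 4.46, 3.80 and 3.82 in YSGnr. All YSGr libraries lay above all SG libraries, by 1.11 log2 units on average (SE 0.31), and the adjusted p was 0.0528 (limma). The 4 libraries with high Xist were also the 4 highest in Stat2, and whether sex has a part in the difference was not tested. Zbtb46, of the dendritic cell markers, was at 6.37, 6.33 and 5.18 log2 CPM in YSGr and between 4.34 and 4.55 in SG. Flt3 of that list was also called higher in YSGr, while Siglech, Itgax and Xcr1 were not called, at 0.24, 0.75 and -0.21. The Hedgehog target Gli1 likewise set YSGr replicates 1 and 2 apart from replicate 3, at 5.12, 5.01 and 7.57. The part of these cell markers in the Stat2 values was not tested. Without YSGr replicate 3 the Stat2 difference from SG was 1.48 (limma, adjusted p = 0.00158), and without YSGnr replicate 1 it was 1.11 and called (limma, adjusted p = 0.0369). Irf9, the gene of the DNA-binding partner of STAT2, stood at 2.90, 3.42 and 2.94 in SG, 3.62, 3.73 and 3.36 in YSGr and 3.06, 2.75 and 2.83 in YSGnr. The YSGr libraries of Irf9 lay above the YSGnr libraries by 0.69 (SE 0.20, adjusted p = 0.0635, limma), a difference that was not called. Exons of Irf9 overlap those of Rnf31 on the same strand, so some reads may be shared.

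Among the other interferon regulatory factors, Irf3 was between 4.32 and 4.95 log2 CPM in all libraries with overlapping groups. Irf1, an interferon gamma target, stood at 1.42, 2.00 and 1.46 in SG, 1.56, 1.58 and 2.00 in YSGr and 1.77, 2.22 and 2.47 in YSGnr. Irf2, a repressor of interferon-induced promoters, stood at 3.74, 3.81 and 3.72 in SG, 3.81, 3.66 and 3.89 in YSGr and 3.68, 3.08 and 3.18 in YSGnr, where the groups YSGnr and SG did not overlap. Irf8, a factor of microglia and other myeloid cells, stood at 2.26, 2.70 and 2.50 in SG, 2.29, 1.97 and 2.54 in YSGr and 2.45, 3.28 and 3.29 in YSGnr. Irf5, another myeloid factor, stood at -1.54, 1.39 and 1.31 in YSGnr and between 0.22 and 1.27 in the other groups. The YSGnr replicates that were high in Irf8 and Irf5 were also those with summed microglia and macrophage markers of 380 and 360 CPM, although Cx3cr1 was at 4.92 and 4.29 log2 CPM in them and between 5.18 and 5.25 in SG. In these bulk samples fewer cells of a type and less RNA per cell cannot be told apart.

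All 4 receptor genes were well expressed and none was called. Ifnar1 stood at 6.40, 6.44 and 6.44 log2 CPM in SG, 6.30, 6.07 and 6.08 in YSGr and 6.31, 6.12 and 6.15 in YSGnr. Both floxed groups lay just below SG, by -0.28 (SE 0.12, adjusted p = 0.178, limma) in YSGr and -0.23 (SE 0.12, adjusted p = 0.248, limma) in YSGnr. Ifngr1 stood at 4.17, 4.14 and 4.22 in SG, 3.65, 3.72 and 4.17 in YSGr and 3.97, 4.59 and 4.62 in YSGnr. Ifnar2 ran from 3.71 to 4.53 and Ifngr2 from 4.48 to 5.09, with overlapping groups in every comparison.

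**Figure D3:**
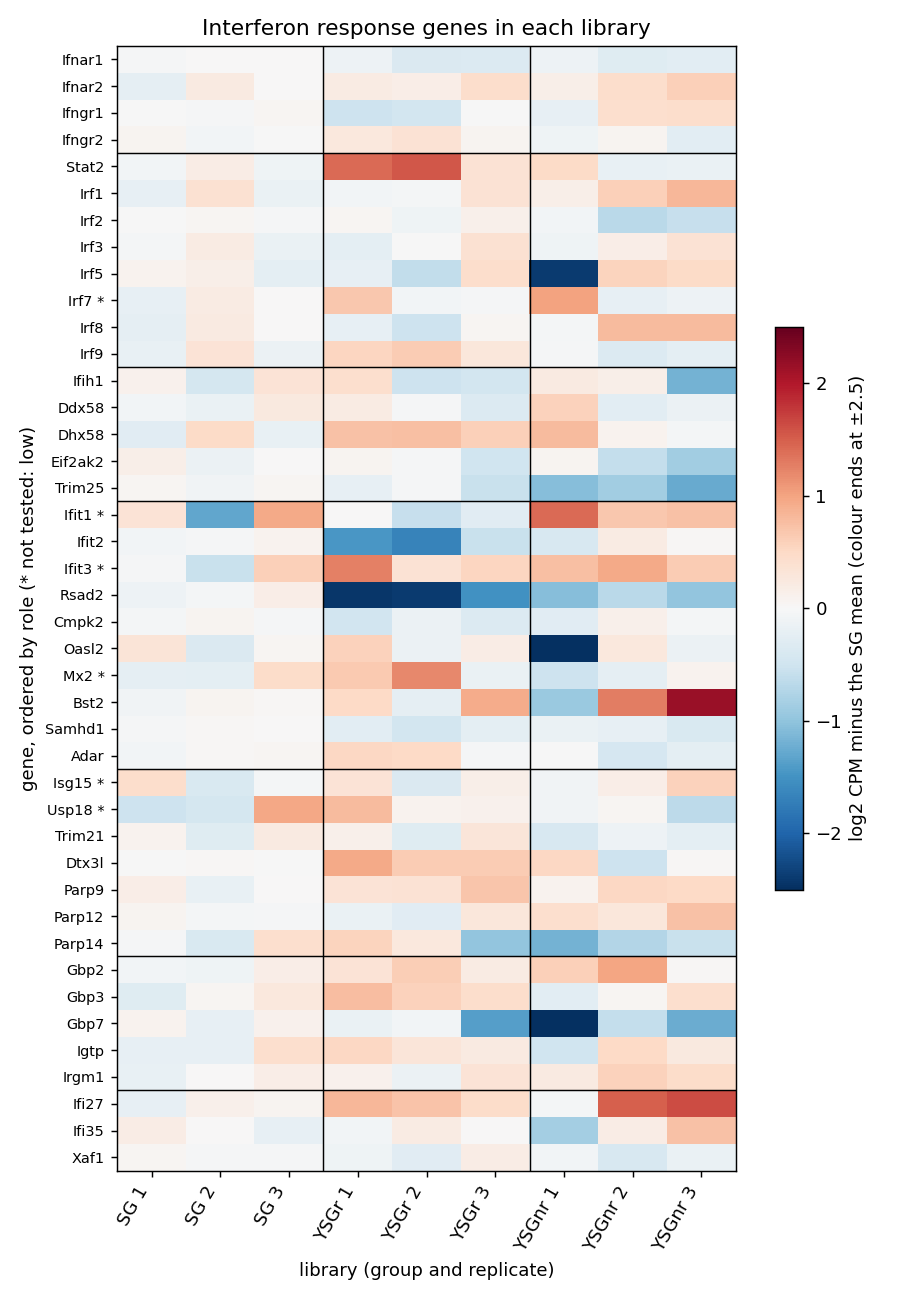
Log2 CPM of the 42 genes in each library minus the SG mean of the gene, ordered by role, with asterisks at the 6 untested genes. The low values of Rsad2 and Ifit2 in YSGr, the high Stat2 of YSGr replicates 1 and 2, and the low Irf5, Oasl2 and Gbp7 of YSGnr replicate 1 stand out.

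YSGnr tumours carry the same floxed allele under the non-rescued label. Against SG, Trim25, which encodes a ubiquitin ligase that activates the RNA sensor RIG-I, was 2.09-fold lower in YSGnr and was the 1 gene of the set that was called. The other 35 tested genes were not called, and 3.36% of all tested genes were called, 1.19% higher and 2.17% lower. At an unadjusted p below 0.05, 3 of the 36 were higher and 4 lower, against 25.6% of all genes, 11.1% higher and 14.5% lower. The median difference of the 36 was -0.023 log2 units, against -0.0088 over all genes. Fully separate groups were found at 10 of the 36 genes, 2 higher and 8 lower, and at 38.2% of all genes, 16.9% higher and 21.3% lower.

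Trim25 (ENSMUSG00000000275.16, chromosome 11, 88999376 to 89020293, GRCm38) stood at 3.25, 3.11 and 3.26 log2 CPM in SG, 3.00, 3.19 and 2.65 in YSGr and 2.15, 2.34 and 1.95 in YSGnr. The YSGnr libraries lay below all others, and those of SG and YSGr overlapped. Trim25 fell by 1.06 log2 units in YSGnr against SG (SE 0.19, adjusted p = 0.0284, limma) and was 1.74-fold higher in YSGr than in YSGnr (log2 difference 0.80, SE 0.19, adjusted p = 0.0475, limma). The difference between YSGr and SG was -0.26 (SE 0.19, adjusted p = 0.449, limma). With a length and GC trend removed from each library, the difference between YSGnr and SG was -0.75 (limma, adjusted p = 0.0549) and that between YSGr and YSGnr 0.44 (limma, adjusted p = 0.126). The endothelial markers Cdh5, Kdr and Flt1, 3 of 6 on that list, were also called lower in YSGnr than in SG, by log2 differences of -0.95, -1.37 and -1.38 (limma, adjusted p = 0.0238, 0.013 and 0.017), and higher in YSGr than in YSGnr. Pecam1, Cldn5 and Tek of that list were not called in either comparison. Their log2 differences between YSGnr and SG were 0.09, -0.20 and -0.81 (limma, adjusted p = 0.765, 0.501 and 0.0674), so the list was not uniform. The part of the endothelial markers in the Trim25 result was not tested. Leaving out any 1 SG library, YSGr replicate 1 or YSGnr replicate 3 also ended the call against SG (limma, adjusted p = 0.151, 0.12, 0.142, 0.0513 and 0.107).

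The RNA sensors and Eif2ak2 were not called with all 9 libraries. Ddx58, which encodes RIG-I, stood at 2.09, 2.00 and 2.41 log2 CPM in SG, 2.38, 2.14 and 1.83 in YSGr and 2.75, 1.90 and 2.02 in YSGnr, with overlapping groups. Ifih1, which encodes MDA5, ran from -0.15 to 1.44, and the groups overlapped. Dhx58, a regulator of both, stood at 0.38, 0.40 and 0.25 in YSGr and at -0.64, 0.12 and -0.53 in SG, with an antisense gene whose exons overlap it. Eif2ak2, which encodes the RNA-activated kinase PKR, stood at 3.87, 3.58 and 3.73 in SG, 3.79, 3.70 and 3.22 in YSGr and 3.80, 3.14 and 2.87 in YSGnr.

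YSGnr replicate 1, the shallowest library and the only YSGnr library with high Xist, often stood apart from replicates 2 and 3. Without it, 6 of the 36 genes were called in YSGnr against SG, while the share of all tested genes called was 21.8%. The lower ones were Trim25 at -1.06, Irf2 at -0.63 and Eif2ak2 at -0.73 log2 units (limma, adjusted p = 0.0158, 0.0209 and 0.0418). The higher ones were Bst2 at 1.72, Ifi27, an interferon-induced mitochondrial protein gene, at 1.56 and Irf8 at 0.79 (limma, adjusted p = 0.0216, 0.00658 and 0.0384). Ifi27 stood at 1.24, 1.58 and 1.52 log2 CPM in SG, 2.27, 2.16 and 1.90 in YSGr and 1.40, 2.95 and 3.07 in YSGnr. With all 9 libraries the differences of Bst2, Ifi27 and Irf8 between YSGnr and SG were 0.84, 1.03 and 0.52 and were not called (limma, adjusted p = 0.441, 0.157 and 0.256). The part that the uneven microglia and macrophage markers of YSGnr replicates 2 and 3 have in these values was not tested.

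The ubiquitin and ADP-ribosylation genes gave no call with all 9 libraries. Dtx3l and Parp9 encode partners in 1 complex and are transcribed in opposite directions from overlapping starts on chromosome 16. Dtx3l stood at 2.19, 2.24 and 2.20 log2 CPM in SG, 3.16, 2.85 and 2.85 in YSGr and 2.72, 1.69 and 2.24 in YSGnr, so the YSGr libraries lay above all others. The differences of 0.74 from SG (SE 0.26) and 0.73 from YSGnr (SE 0.26) were not called (limma, adjusted p = 0.103 and 0.0952). The libraries with high Xist, those of YSGr and YSGnr replicate 1, were the highest in Dtx3l, and the part of sex was not tested. Without YSGnr replicate 1 the Dtx3l difference from SG was called (limma, adjusted p = 0.0348), as was that of Ifi27, 0.66 (limma, adjusted p = 0.0425). Parp9 stood at 2.20, 1.84 and 2.04 in SG, 2.37, 2.39 and 2.72 in YSGr and 2.12, 2.54 and 2.53 in YSGnr, again with YSGr above SG (log2 difference 0.46, SE 0.21, adjusted p = 0.196, limma). Their exons overlap on opposite strands, and no label says whether strand was kept, so reads of the pair may be shared. Parp12 stood at 3.40, 3.28 and 3.30 in SG, 3.17, 3.05 and 3.60 in YSGr and 3.74, 3.61 and 4.05 in YSGnr, where the YSGnr libraries lay above both other groups. Parp14 ran from -0.17 to 1.56, with YSGnr below SG, and Trim21 ran from 0.45 to 1.16 with no call.

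The interferon-induced GTPases, which act on vacuoles of intracellular pathogens, were not called either. Gbp7 stood at 2.57, 2.28 and 2.59 log2 CPM in SG, 2.32, 2.41 and 1.10 in YSGr and -0.09, 1.89 and 1.23 in YSGnr. Its difference of -1.47 between YSGnr and SG (SE 0.51, adjusted p = 0.12, limma) was not called, and YSGnr replicate 1, with an estimated 3.33 reads, was the lowest library. Without that library it was -0.92 (limma, adjusted p = 0.128). Gbp3 stood at -0.01, 0.35 and 0.57 in SG, 1.07, 0.88 and 0.74 in YSGr and 0.03, 0.35 and 0.73 in YSGnr. Irgm1 ran from 2.31 to 3.06, Gbp2 from -0.01 to 1.08 and Igtp from -0.74 to 0.27. The guanylate-binding protein genes are a family of similar copies, so their values are uncertain, as are those of Igtp, whose exons overlap Irgm2 on the same strand.

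The comparison of YSGr with YSGnr sets tumours with the floxed allele and different rescue labels against each other. Ifit2 was lower and Trim25 higher in YSGr, and 34 of the 36 tested genes were not called. In this comparison 5.97% of all tested genes were called, 5.09% higher and 0.879% lower. At an unadjusted p below 0.05, 7 of the 36 genes were higher and 5 lower, against 33.9% of all genes, 19.3% higher and 14.6% lower. The median difference of the 36 was 0.091 log2 units, against 0.0070 over all genes. Libraries of the groups were fully separate at 7 of the 36 genes, 4 higher and 3 lower, and at 22.5% of all genes, 15% higher and 7.46% lower. The Ifit2 call ended when any 1 library other than YSGr replicate 3 and YSGnr replicate 1 was left out (limma, adjusted p between 0.0858 and 0.193), and so did the Trim25 call (limma, adjusted p between 0.0876 and 0.206). With the 6 libraries of these groups alone neither was called (limma, adjusted p = 0.168 and 0.178).

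Leaving out YSGr replicate 3 raised the number of called genes from 2 to 11 in this comparison, with 42.8% of all genes called. Those higher in YSGr were Stat2, Irf9, Adar, Trim25, Parp14 and Ifngr2, and those lower were Rsad2, Ifit2, Irf8, Ifngr1 and Parp12. The log2 difference was 0.80 for Irf9 (limma, adjusted p = 0.014) and -0.69 for Parp12 (limma, adjusted p = 0.0118). Leaving out YSGnr replicate 1 gave 12 calls, with 31.0% of all genes called. In that fit every YSGr library and no YSGnr library had high Xist. Sex and group therefore cannot be told apart in it. Stat2 gave 1.28 and Bst2 -1.32 in that fit (limma, adjusted p = 0.0285 and 0.0373).

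**Figure D4:**
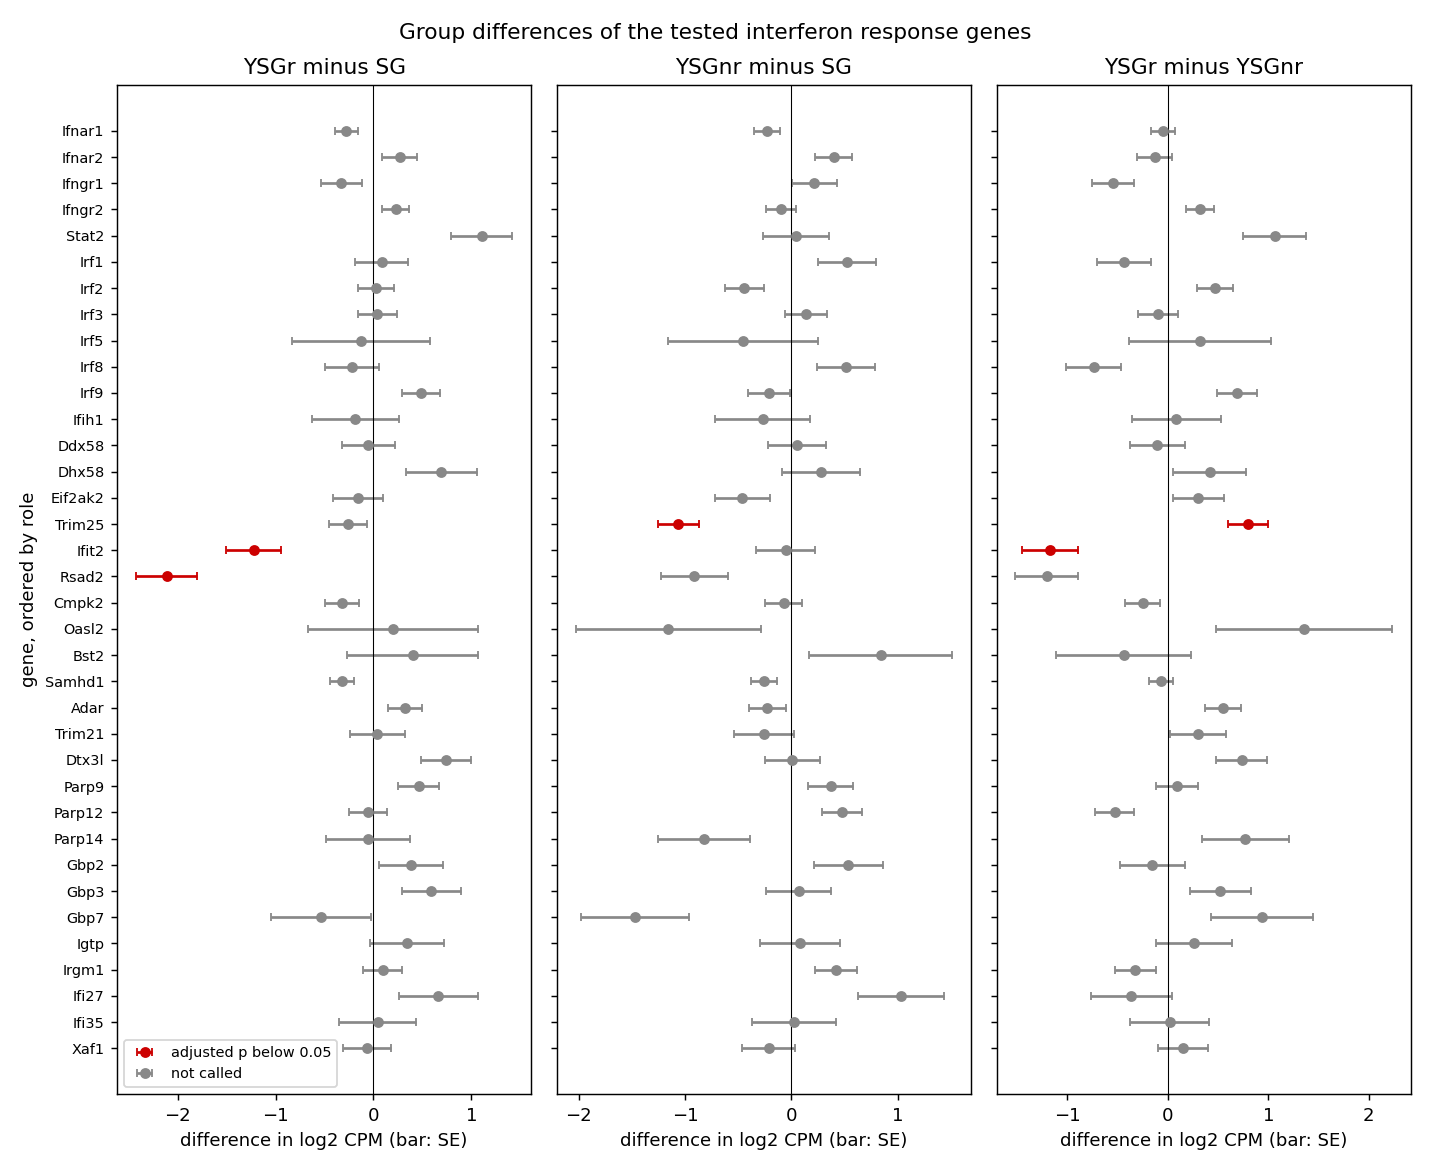
Differences in log2 CPM (points) with SE (bars) for the 36 tested genes in each comparison, red where the adjusted p is below 0.05. Red points are Rsad2 and Ifit2 in YSGr minus SG, Trim25 in YSGnr minus SG, and Trim25 and Ifit2 in YSGr minus YSGnr.

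A wider list of 129 pathway genes, covering ligands, kinases, sensors and further induced genes, had 96 genes in the table and 65 with enough signal to be tested. In YSGr against SG 2 of the 65 rose and 3 fell, beside the 10.5% of all genes called. The receptor kinase gene Jak2 stood at 5.75, 5.63 and 5.71 log2 CPM in SG and at 5.08, 5.03 and 4.91 in YSGr and fell by 0.69 (SE 0.14, adjusted p = 0.0191, limma). Trim56, a ubiquitin ligase gene of the DNA-sensing pathway, fell by 0.72 (SE 0.16, adjusted p = 0.0221, limma), and Slfn9, a Schlafen family gene, fell by 0.54 (SE 0.14, adjusted p = 0.0428, limma). The lysosomal thiol reductase gene Ifi30 rose by 0.70 (SE 0.19, adjusted p = 0.0477, limma) and Trafd1, a negative regulator of innate signalling, rose by 0.46 (SE 0.12, adjusted p = 0.0455, limma). In YSGnr against SG 1 of the 65 was called, beside 3.36% of all genes: Trim56 stood at 4.40, 4.48 and 4.35 in SG and 3.50, 3.49 and 3.18 in YSGnr and fell by 1.02 (SE 0.16, adjusted p = 0.0162, limma). None of the 65 was called between YSGr and YSGnr by limma, beside 5.97% of all genes, and 18 had an unadjusted p below 0.05, beside 33.9% of all genes. Both comparisons with SG share the SG libraries, so the 2 results for Trim56 are not independent.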

How the data were processed

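RNA of 9 mouse tumour libraries was sequenced on the DNBseq platform, per the labels' protocols. The authors deposited 1 table of log2 CPM. Tools in the submitters' processing notes are edgeR, Picard, Bowtie2, RSEM and Trimmomatic, without versions, with the build mm10. No annotation is named there. The deposited values share a lowest value of -3.52, which fits an added count of 2 reads on average, and fold changes of low genes are understated. Of the lowest 25% of the values above it, 59.4% to 70.6% came out whole within 0.02 reads, so no count test was used.

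Groups followed the sample titles. Limma 3.58.1 in R 4.3.3 was fitted to log2 CPM of all 9 libraries, with 1 mean per group and the prior variance trended on level, and its moderated tests were two-sided. Genes needed a log2 CPM above 0 in at least 3 libraries, which left 15251 genes and 36 of the 42, and a call was an adjusted p (Benjamini-Hochberg) below 0.05. The steps were tested on simulated data. The genes and lists were chosen with earlier results of these data known. All 9 values were to be printed for genes called in any comparison and for Irf7, Isg15, Ifit1, Ifit3, Stat2, Ifnar1 and Ifngr1, and further genes were given values after their values were seen. From the wider list called genes were named, up to 6 per comparison. Coordinates, lengths and GC are from GENCODE M21 (GRCm38, the assembly of mm10), where 95.6% of symbols matched 1 gene, and promoter sequences from RefSeq. Alternatives were other filters, a pseudocount of 1 CPM, median scaling, quantile normalization, 6 libraries alone, no trend, the replicate number as a block, array weights, a length and GC trend removed, the block with that trend removed, each library left out, and YSGr replicate 3 with YSGnr replicate 1 left out.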

Additional observations from a re-analysis of the deposited data

How the results depend on the processing

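The Rsad2 decrease in YSGr against SG was called in all 21 alternative fits, between -2.46 and -1.33 log2 units (limma, adjusted p at most 0.039). The number of called genes in YSGr against SG, 2 in the reported fit, was 16 with array weights, 1 with the length and GC trend removed and 11 with YSGr replicate 3 and YSGnr replicate 1 left out, and between 1 and 5 with each library left out in turn. In YSGnr against SG it was 1 in the reported fit, 16 with array weights, 0 with the length and GC trend removed, 0 with the replicate block and that trend removed and 17 with both libraries left out, and between 0 and 6 with each library left out. In YSGr against YSGnr it was 2 in the reported fit, 0 with no filter, 0 with median scaling, 0 with the 6 libraries alone, 0 with the length and GC trend removed, 1 with quantile normalization, 1 with the replicate block, 1 with the block and the trend removed, 21 with array weights and 21 with both libraries left out, and between 0 and 12 with each library left out. The share of all tested genes called was 63.3%, 48.0% and 65.4% with array weights and 49.5%, 52.9% and 64.7% with both libraries left out, in the same order of comparisons. With YSGnr replicate 1 left out, alone or with YSGr replicate 3, sex and group cannot be told apart in YSGr against YSGnr. In the 18 limma fits with 0 calls, between 2 and 12 of the genes had an unadjusted p below 0.05. For most alternative fits the share of all tested genes that passed is not given here. The counts from those fits therefore cannot be set against a background. The replicate numbers showed no clear pairing of the libraries. Same-numbered libraries correlated between -0.23 and 0.24 in their deviations from the group means, and different-numbered ones between -0.25 and 0.23. With 3 libraries a group these correlations cannot exclude a pairing. The Yap1 difference from SG ran from -2.01 to -1.19 in YSGr and from -2.78 to -2.38 in YSGnr with each library left out. Its adjusted p ran from 0.0125 to 0.125 in YSGr and from 0.00354 to 0.0955 in YSGnr (limma). The Yap1 calls of the reported fit (limma, adjusted p = 0.0327 and 0.0131) were thus lost in some of these fits.

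The difference of Ifit2 between YSGnr and SG, -0.054 and not called, was 0.075 with array weights, 0.072 with the length and GC trend removed, with or without the block, and 0.11 with both libraries left out, and ran from -0.18 to 0.11 with each library left out. The difference of Bst2 between YSGr and YSGnr, -0.44 and not called, was 0.22 without YSGnr replicate 3 and -1.32 without YSGnr replicate 1, its range with each library left out. Of 818 alternative values for 39 gene differences, 682 kept direction and side of the threshold, 39 lost a call, 91 gained one and these 6 changed sign. Depth limits the 6 untested genes and low genes in YSGnr replicate 1.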
